A study of Mus musculus with 22 samples.

Results

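The 10 genes described here belong to the antioxidant response driven by the transcription factor NRF2. They are Nfe2l2, which encodes NRF2, its inhibitor Keap1, and 8 target genes, namely Hmox1, Gclc, Gclm, Txnrd1, Srxn1, Slc7a11, Gpx2 and Prdx1. The genes were listed by symbol, and each symbol was matched to 1 Ensembl gene among the 54373 genes of the count files. All 10 were detected and passed the filter on low counts in every comparison.

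The study asked how the aryl hydrocarbon receptor (AhR), a ligand-activated transcription factor, and CYP1B1, a cytochrome P450 enzyme induced by it, shape allergic airway inflammation. RNA was sequenced from lung epithelial cells (ECs) that had been sorted from mice as CD45-negative, EpCAM-positive cells. There were 22 libraries in 6 groups of 3 genotypes and 2 states, all on the C57BL/6 background and from mice over 7 weeks old. WT mice gave 4 steady-state and 4 HDM libraries, AhR-/- mice gave 3 and 4, and CYP1B1-/- mice gave 3 and 4. Steady-state mice were not exposed to allergen. HDM mice received house dust mite extract (Dermatophagoides farinae) into the nose, first in 1 sensitizing instillation and, after 8 days, on 4 consecutive days, and lungs were taken 72 h after the last of these. Both knockouts are germline deletions, so every cell type of the animal carried the deletion during the response. The labels do not say whether the libraries of a group came from separate animals, so p-values measure the spread between libraries, which may be partly technical.

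NRF2 is held in the cytoplasm by KEAP1, which passes it to a CUL3 ubiquitin ligase for destruction. Oxidants and electrophiles modify KEAP1, NRF2 then accumulates, pairs with small MAF proteins and binds antioxidant response elements in front of its target genes, while BACH1 occupies the same elements as a repressor. The targets make glutathione (GCLC and GCLM, the catalytic and modifier subunits of glutamate-cysteine ligase, and SLC7A11, which imports cystine), use it against peroxides (GPX2), run the thioredoxin system (TXNRD1, PRDX1 and SRXN1, which repairs oxidized peroxiredoxins) and break down heme (HMOX1). In lung epithelium the pathway is known for protection against inhaled oxidants. AhR acts through a different element, and some genes, such as Nqo1, are known targets of both factors.

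Several features of the whole series bear on the values below. Total counts per library were 9654825 to 17878442 (median 11563871), but 6 predicted genes (Gm10800 and 5 others) took between 0.0115% and 88.8% of the protein-coding counts, which left 1180756 to 16447855 counts for all other protein-coding genes. Values are therefore given as CPM, that is counts relative to a common library size, on library sizes corrected by the trimmed mean of M-values (TMM), from 2197984 to 27909963. The thinnest library, AhR-/- HDM replicate 3, had 3 counts of Hmox1 and 4 each of Keap1 and Slc7a11, and 3 counts were worth 1.36 CPM there and 0.107 CPM in the deepest. The targeted transcripts were not lost in the HDM libraries of the knockouts. Ahr was at 12.8 to 25.5 CPM in libraries labelled AhR-/- HDM against 9.62 to 20.0 CPM in WT HDM, and Cyp1b1 was at 4.98 to 13.5 CPM in libraries labelled CYP1B1-/- HDM against 0.897 to 2.31 CPM in WT HDM. Counts over a whole gene do not check the deletion of a part of it, so directions below refer to libraries as labelled. Reads of the Y-linked gene Ddx3y were present in all 10 steady-state libraries (19.7 to 99.8 CPM) and, in HDM, at 67.3 and 69.6 CPM in AhR-/- replicates 3 and 4 and at no more than 0.0859 CPM in the other 10 libraries. CYP1B1-/- steady-state replicate 2 stood apart in several members and is named where it does. Epcam, the sorting marker, was at 68.2 to 312 CPM. Both alveolar and airway markers were present, with summed levels in WT steady-state libraries of 19127 to 23507 CPM for 6 alveolar type 1, 2305 to 5289 CPM for 7 alveolar type 2, 1197 to 2742 CPM for 4 club and 273 to 498 CPM for 5 ciliated cell markers, so the libraries are not of airway cells alone. Ptprc, which encodes the CD45 that the sort selected against, was at 2.02 to 52.6 CPM at steady state and reached 669 CPM in HDM.

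Promoter sequence is shown for the members because NRF2 and AhR use different elements. In the RefSeq promoters of GRCm38.p6 (250 bases before to 50 bases after a gene's start), 8 of the 10 members were listed, with 3 promoters for Txnrd1, and not Hmox1 or Gclc. The core of the antioxidant response element, TGACNNNGC on either strand, was found in 5 of the 10 promoters of these 8 members, 1 in each of 5 members, and in 12.4% of all 32851 promoters. The 29-base windows around these matches follow, read on the strand of the motif, with the motif in capitals.

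Nfe2l2 (chr2:75704885-75704913): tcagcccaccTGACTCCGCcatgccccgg

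Gclm (chr3:122245413-122245441): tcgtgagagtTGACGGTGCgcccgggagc

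Txnrd1, second of its promoters (chr10:82859104-82859132): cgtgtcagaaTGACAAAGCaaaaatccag

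Srxn1 (chr2:152105542-152105570): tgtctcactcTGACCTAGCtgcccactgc

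Prdx1 (chr4:116685456-116685484): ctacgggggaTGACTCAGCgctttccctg

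The match of Nfe2l2 lay on the strand of the gene and those of the other 4 on the opposite strand. Measured from the start site, they ran from -240 to -232 in Nfe2l2, from -134 to -126 in Gclm, from -92 to -84 in Txnrd1, from 28 to 36 in Srxn1 and from -133 to -125 in Prdx1. The stricter form TGACTCAGC, which also holds the AP-1 motif TGACTCA, was present in 1 of the 10 promoters, that of Prdx1, and in 0.454% of all promoters. The core of the AhR element, GCGTG on either strand, was found in 6 of the 10 promoters, those of 4 members (Keap1, Gclm, Txnrd1 and Srxn1), and in 32.4% of all promoters. A match is a description of the letters in this window and not a binding site.

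The promoters of Gclm and Slc7a11, the 2 members that differed between AhR-/- and WT ECs after HDM, are printed from 250 to 11 bases before the start site, on the strand of each gene, with TGACNNNGC and GCGTG matches on either strand in capitals.

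Gclm (GRCm38.p6, chr3:122245307-122245546, plus strand): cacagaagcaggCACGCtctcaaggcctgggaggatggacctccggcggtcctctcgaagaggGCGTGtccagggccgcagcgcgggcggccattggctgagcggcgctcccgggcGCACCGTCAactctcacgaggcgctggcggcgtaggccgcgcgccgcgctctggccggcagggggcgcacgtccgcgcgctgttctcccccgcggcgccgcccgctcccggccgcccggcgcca

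Slc7a11 (GRCm38.p6, chr3:50443624-50443863, minus strand): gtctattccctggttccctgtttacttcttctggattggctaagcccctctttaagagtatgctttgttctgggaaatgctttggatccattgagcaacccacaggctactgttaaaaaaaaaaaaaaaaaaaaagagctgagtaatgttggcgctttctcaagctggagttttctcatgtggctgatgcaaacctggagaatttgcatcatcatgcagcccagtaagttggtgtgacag

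The Gclm window held 1 TGACNNNGC and 2 GCGTG matches and the Slc7a11 window held neither motif.

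Transcript levels of the members differed widely at steady state. Per kilobase of merged exons in WT steady-state ECs, Prdx1 was at 63.3 ± 7.90 and Nfe2l2 at 35.2 ± 3.97 CPM per kb (mean ± SD, n = 4). Keap1 (5.40) and Txnrd1 (5.30) came next, followed by Srxn1 (3.16), Gclm (2.63), Hmox1 (2.48) and Gclc (2.32), and Gpx2 (0.460) and Slc7a11 (0.266) were lowest. Keap1 and Txnrd1 differed by less than their SDs, as did neighbours among Srxn1, Gclm, Hmox1 and Gclc. In WT HDM ECs Gclc, at 23.1 ± 13.8 CPM per kb, stood beside Nfe2l2 at 25.8 ± 5.99 and differed from it by less than the SD of either, while Gclm was at 1.00 ± 0.162. Hmox1 (5.53 ± 2.38) then stood above Keap1 (3.84) and Txnrd1 (3.55), and Gpx2 (1.16 ± 0.644) above Gclm, by less than the SD of Hmox1 and of Gpx2. The remaining values are CPM per library and compare 1 gene between libraries.

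**Figure D1:**
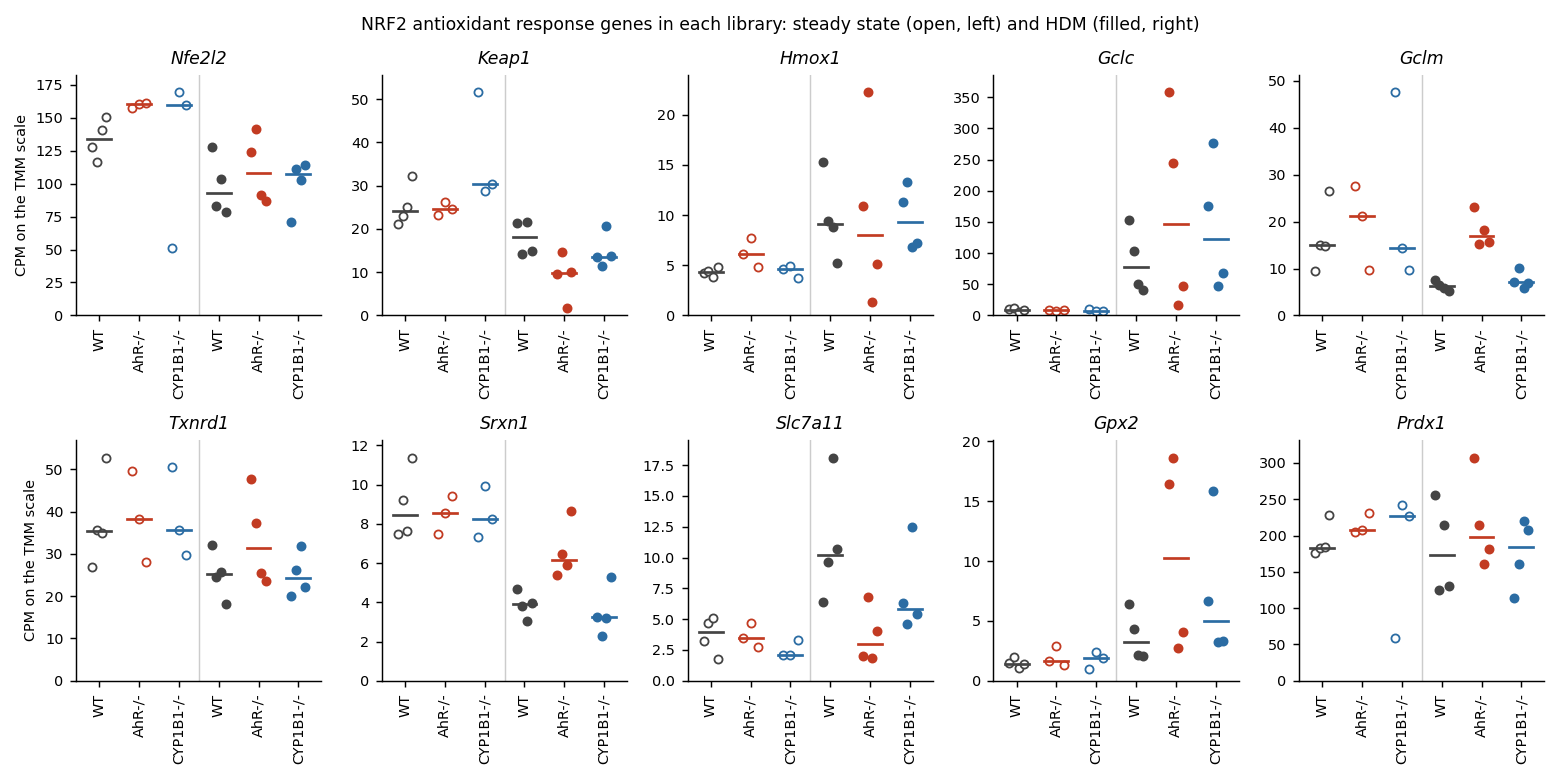
CPM on the TMM scale (linear axes from 0) of the 10 members in each of the 22 libraries, with open points for steady state, filled points for HDM and bars at group medians. Gclc lay at 5.49 to 11.2 CPM at steady state and at 16.8 to 358 CPM in HDM, and Gclm was higher in the 4 AhR-/- HDM libraries (15.3 to 23.1 CPM) than in the 4 WT HDM libraries (5.13 to 7.53 CPM).

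The first comparison asked how ECs of AhR-/- mice differed from those of WT mice after HDM. Gclm was higher and Slc7a11 lower in AhR-/- ECs, so that the modifier subunit of the enzyme that starts glutathione synthesis and the importer of cystine, its source of cysteine, differed in opposite directions. These were 2 of the 10 members, beside 22.1% of all 14161 genes tested (9.22% higher and 12.9% lower). The members' median log2 fold change was 0.35 against 0.00 over all genes tested, and the AhR-/- and WT libraries did not overlap for 2 of the 10, Gclm and Srxn1, against 19.5% of all genes. The share of members called was thus close to that of all genes.

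Gclm (chr3:122245557-122270732, plus strand, GRCm38) was at 7.53, 6.60, 5.93 and 5.13 CPM in WT HDM replicates 1 to 4. It was at 23.1, 15.3, 18.2 and 15.7 CPM in AhR-/- HDM replicates 1 to 4. All 4 AhR-/- libraries exceeded all 4 WT libraries, and the log2 fold change was 1.52 ± 0.27 (SE), or 2.86-fold (adjusted p = 0.0261, edgeR quasi-likelihood test with Benjamini-Hochberg adjustment). AhR-/- replicate 3 gave this value from 40 counts. Without any 1 library the log2 fold change stayed between 1.40 and 1.59, but the adjusted p rose above 0.05, to between 0.0525 and 0.0921, without AhR-/- replicate 1, 3 or 4 or WT replicate 3 or 4.

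Slc7a11 (chr3:49892526-50443614, minus strand), the cystine-glutamate antiporter, was at 6.41, 9.64, 18.1 and 10.7 CPM in WT HDM replicates 1 to 4. It was at 1.97, 6.78, 1.82 and 4.06 CPM in AhR-/- HDM replicates 1 to 4. The groups overlapped by the second AhR-/- library, which exceeded the lowest WT library, and the log2 fold change was -1.57 ± 0.48, or 2.96-fold lower (adjusted p = 0.0384). It lay between -2.10 and -1.25 without any 1 library, with adjusted p above 0.05, between 0.0852 and 0.133, without AhR-/- replicate 1, 3 or 4 or WT replicate 3 or 4. With replicate number as a block in the fit, neither Gclm nor Slc7a11 was called.

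Markers of other cell types moved with the same contrast. The summed level of 10 hematopoietic markers was 1729 to 5381 CPM in WT HDM libraries. It was 1097, 1012, 176 and 153 CPM in AhR-/- HDM replicates 1 to 4, and 6 of the 10 were lower. The sums of replicates 3 and 4 lay within the steady-state range (27.3 to 250 CPM). The sum of 6 alveolar type 1 markers was 599 to 4369 CPM in WT HDM and 9141, 3143, 13983 and 18580 CPM in AhR-/- HDM replicates 1 to 4, although 0 of the 6 passed the test (median log2 fold change 1.81). Sums of airway markers were higher as well, with ranges that overlapped at their ends. The sum of 4 club cell markers was 195 to 1825 CPM in WT HDM and 1686 to 8070 CPM in AhR-/- HDM libraries (1 of 4 called higher, median log2 fold change 2.12). The sum of 5 ciliated cell markers was 57.6 to 111 CPM and 106 to 183 CPM (2 of 5 called higher, median 0.95). The sum of 5 mesenchymal markers was 18.1 to 51.5 CPM and 47 to 75.5 CPM (0 of 5 called, median 1.21). That of 8 alveolar macrophage markers was 271 to 726 CPM in WT HDM and 54.4 to 4622 CPM in AhR-/- HDM libraries (0 of 7 tested called, median -0.67). The part of these 4 marker lists in the result was not tested. No hematopoietic, alveolar type 1 or alveolar type 2 marker was at 0 in any library. With the hematopoietic score as a covariate the log2 fold changes were 1.12 for Gclm and -1.08 for Slc7a11 (adjusted p = 0.75 and 0.751), and with the alveolar type 1 score they were 1.20 and -0.99 (adjusted p = 0.159 and 0.334), and 0 genes in all were called under either. In sorted bulk ECs, fewer cells of a type and less RNA per cell cannot be told apart. Without AhR-/- replicates 3 and 4, the libraries with Y-linked reads, the values were 1.56 for Gclm and -1.435 for Slc7a11 (adjusted p = 0.202 and 0.222), and 0 genes were called.

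The other 8 members did not pass the test. For the sensor arm, Nfe2l2 (chr2:75675513-75704641, minus strand) differed by 0.19 ± 0.22 on the log2 scale (adjusted p = 0.573). Keap1 was at 21.3, 14.2, 21.6 and 14.9 CPM in WT HDM and at 9.49, 14.7, 1.82 and 10.1 CPM in AhR-/- HDM replicates 1 to 4. Its groups overlapped by AhR-/- replicate 2, and its difference of -0.94 ± 0.37 (adjusted p = 0.0835) was called by DESeq2 and by the edgeR likelihood ratio test (adjusted p = 0.0422 and 0.0361). AhR-/- replicate 3 gave its value from 4 counts, and the difference lay between -1.256 and -0.686 without any 1 library. Keap1 was not called with the hematopoietic or alveolar type 1 score as a covariate.

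In the thioredoxin arm, Srxn1 (sulfiredoxin, chr2:152105516-152111376, plus strand) was at 4.66, 3.81, 3.04 and 3.97 CPM in WT HDM and at 5.37, 6.44, 5.91 and 8.66 CPM in AhR-/- HDM replicates 1 to 4. The AhR-/- libraries were all above the WT libraries, with a log2 fold change of 0.75 ± 0.29 that missed the threshold (adjusted p = 0.0806) and that DESeq2 called (adjusted p = 0.0426). It lay between 0.575 and 0.866 without any 1 library and was not called with the hematopoietic or alveolar type 1 score. Txnrd1 (chr10:82833951-82897712, plus strand), the cytosolic thioredoxin reductase, differed by 0.42 ± 0.24 (adjusted p = 0.219) and Prdx1 (chr4:116685544-116700822, plus strand), a peroxidase that thioredoxin recharges, by 0.28 ± 0.25 (adjusted p = 0.452).

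Gclc, Gpx2 and Hmox1 varied more within the AhR-/- HDM group than between the groups. Gclc (chr9:77754535-77794485, plus strand) was at 153, 103, 50.8 and 40.5 CPM in WT HDM and at 358, 244, 16.8 and 47.4 CPM in AhR-/- HDM replicates 1 to 4. AhR-/- replicates 1 and 2 were above all WT libraries and replicate 3 was below them (0.90 ± 0.84, adjusted p = 0.461, and 0.26 without AhR-/- replicate 1). Gpx2 (chr12:76792333-76795554, minus strand), an epithelial glutathione peroxidase, had 16.4, 18.6, 2.73 and 4.06 CPM in the AhR-/- libraries against 2.05 to 6.41 CPM in WT (1.54 ± 0.69, adjusted p = 0.119). Hmox1 (chr8:75093621-75100589, plus strand), the inducible heme oxygenase, had 10.9, 22.2, 1.36 and 5.12 CPM against 5.26 to 15.3 CPM in WT, a difference of 0.12 ± 0.57 (adjusted p = 0.91) whose sign turned without AhR-/- replicate 2 (-0.61) or WT replicate 4 (-0.08).

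Between ECs of CYP1B1-/- and WT mice after HDM no member passed the test. No gene of the 14161 tested was called (0%, with 233 at an unadjusted p under 0.05 and 1 gene called by DESeq2 and 1 by the likelihood ratio test), and 0 of the 10 members had libraries that did not overlap (0.621% of all genes). Gclm was at 7.21, 10.1, 5.79 and 6.97 CPM in CYP1B1-/- HDM replicates 1 to 4, a log2 difference of 0.30 ± 0.27 from WT. Slc7a11 was at 6.31, 4.61, 12.5 and 5.39 CPM, a difference of -0.60 ± 0.46. Both sets of values overlapped the WT range, and the differences of Gclc (0.88 ± 0.84), Gpx2 (1.03 ± 0.71) and Keap1 (-0.23) had an adjusted p of 0.999, like all members. The standard errors of Gclc and Gpx2 were the largest, and both values rested on CYP1B1-/- HDM replicate 2, without which they were 0.34 and 0.29.

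The 2 knockouts were also compared with each other after HDM, which shares the AhR-/- libraries with the comparison above. Across all genes 1 was called (0.00706%), with 2906 called by DESeq2 and 2458 by the likelihood ratio test. Gclm was 1.22 ± 0.27 higher on the log2 scale in AhR-/- than in CYP1B1-/- ECs, with all AhR-/- above all CYP1B1-/- libraries (adjusted p = 0.0638, 0.00127 by DESeq2). Srxn1, at 3.25, 2.31, 3.22 and 5.27 CPM in CYP1B1-/- HDM, was 0.87 ± 0.30 higher in AhR-/- ECs without overlap (adjusted p = 0.0812, 0.035 by DESeq2). These 2 members were those without overlap, beside 6.96% of all genes. Slc7a11 (-0.96 ± 0.48, adjusted p = 0.195) and Keap1 (-0.71 ± 0.37, adjusted p = 0.224) did not pass. Cell type markers moved with this contrast as well, with median log2 differences of -2.16 for the 10 hematopoietic and 2.25 for the 6 alveolar type 1 markers, of which 0 were called. With the alveolar type 1 score as a covariate the values were 0.83 for Gclm, 0.71 for Srxn1, -0.092 for Slc7a11 and -0.23 for Keap1 (adjusted p = 1 for each), and with the hematopoietic score 0.97, 0.76, -0.59 and -0.39 (adjusted p = 0.569 to 0.718).

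**Figure D2:**
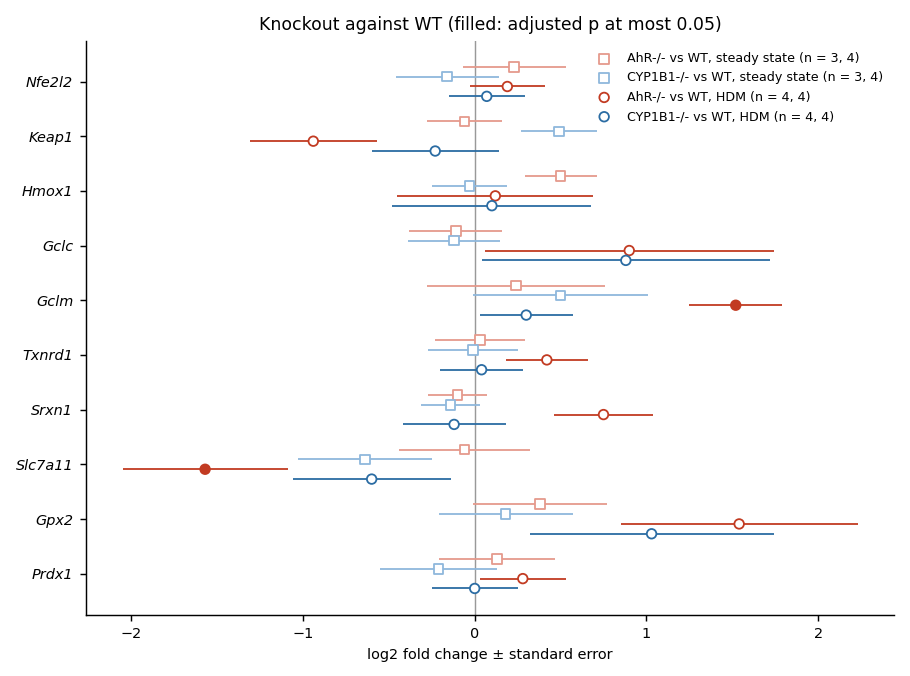
Log2 fold change with its standard error of each member in AhR-/- (red) and CYP1B1-/- (blue) against WT ECs, with squares for steady state (n = 3 against 4) and circles for HDM (n = 4 against 4), filled where the adjusted p was at most 0.05. Only Gclm (1.52) and Slc7a11 (-1.57) in AhR-/- ECs after HDM are filled, and the error bars of Gclc and Gpx2 after HDM are the widest.

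At steady state 0 of the 10 members differed between AhR-/- and WT ECs, as 0% of the 15547 genes tested did (263 at an unadjusted p under 0.05, 11 called by the likelihood ratio test and 13 by DESeq2). Nfe2l2 was at 157, 161 and 161 CPM in the AhR-/- libraries and at 128, 116, 141 and 151 CPM in the WT libraries. The groups did not overlap (3.56% of all genes), yet the difference was 0.23 ± 0.30 with an adjusted p of 1. Hmox1 was at 6.11, 7.70 and 4.86 CPM against 3.86 to 4.88 CPM in WT, a difference of 0.50 ± 0.21 with an unadjusted p of 0.0395 and an adjusted p of 1. The 10 log2 fold changes ran from -0.11 to 0.50. The groups overlapped for Gclm (27.5, 21.2 and 9.72 CPM in AhR-/-, 9.55 to 26.6 CPM in WT) and for Slc7a11 (2.77 to 4.65 and 1.79 to 5.08 CPM).

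In CYP1B1-/- ECs at steady state 0 of the 10 members and 0.0129% of all genes were called against WT. Slc7a11 (-0.64 ± 0.39), Gclm (0.50 ± 0.51) and Keap1 (0.49 ± 0.22) had the largest differences, with adjusted p of 0.827, 0.913 and 0.822. CYP1B1-/- replicate 2 decided most of these values. It had 51.3 CPM of Nfe2l2 and 59.1 CPM of Prdx1, where the other 9 steady-state libraries had 116 to 169 and 176 to 242 CPM. It also had 47.6 CPM of Gclm and 51.5 CPM of Keap1, above the other 9 libraries at 9.55 to 27.5 and 21.1 to 32.2 CPM. Without it the log2 differences from WT were 0.21 for Nfe2l2, 0.20 for Prdx1, -0.52 for Gclm and 0.15 for Keap1. Between the 2 knockouts at steady state 1 gene in all was called (0.00643%) and 0 members, whose log2 fold changes ran from -0.55 to 0.58.

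HDM and steady-state libraries were then compared within each genotype. The tables of the states are named as separate runs, so state and run cannot be told apart, and nor can state and the Y-linked reads outside the AhR-/- group. In WT ECs, Gclc, Slc7a11 and Hmox1 were higher and Gclm and Srxn1 lower in HDM. That was 5 of the 10 members, beside 38.4% of 16639 genes (19.0% higher and 19.4% lower), and 6 of 10 had libraries that did not overlap, beside 38.9%. In AhR-/- ECs 3 members were called (Gclc and Gpx2 higher, Keap1 lower), beside 20.6% of all genes (10.6% higher and 10.1% lower), and 3 did not overlap, beside 35.9%. The hematopoietic marker sums of AhR-/- HDM replicates 3 and 4 (176 and 153 CPM) lay within the steady-state range (27.3 to 250 CPM). Their alveolar type 1 sums (13983 and 18580 CPM) lay just below and within that of steady state (14060 to 25553 CPM). In CYP1B1-/- ECs 6 members were called (Gclc, Slc7a11 and Gpx2 higher, Keap1, Gclm and Srxn1 lower), beside 33.4% (15.5% higher and 17.9% lower), and 6 did not overlap, beside 31.5%. The members' medians (-0.27 in WT, -0.05 in AhR-/- and -0.18 in CYP1B1-/- ECs) lay near 0, with calls in both directions in each genotype.

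Gclc rose most among the members. It was at 10.3, 11.2, 5.49 and 7.96 CPM in WT steady-state replicates 1 to 4, at 9.40, 7.07 and 8.49 CPM in AhR-/- replicates 1, 3 and 4 and at 10.7, 7.86 and 6.89 CPM in CYP1B1-/- replicates 2 to 4. In HDM it was at 176, 276, 47.9 and 68.6 CPM in CYP1B1-/- replicates 1 to 4, beside the WT and AhR-/- values above. Every HDM library exceeded every steady-state library. The log2 fold change was 3.31 ± 0.71 in WT (9.93-fold, adjusted p = 0.00089), 4.33 ± 0.85 in AhR-/- (20.1-fold, adjusted p = 0.0019) and 4.06 ± 0.84 in CYP1B1-/- ECs (16.7-fold, adjusted p = 0.000663). The value in AhR-/- ECs was 3.64 (adjusted p = 0.00739) without AhR-/- HDM replicate 1, the library with the highest level.

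The level of Gclc moved with that of alveolar type 2 markers, the genes of the surfactant-producing cells. The sum of 7 such markers was 830 to 5296 CPM over the steady-state libraries and 4299 to 24326 CPM in WT, 7539 to 71719 CPM in AhR-/- and 5764 to 38549 CPM in CYP1B1-/- HDM libraries. With the alveolar type 2 score as a covariate, an alternative chosen after seeing the data, the rise of Gclc was 1.71 in WT (adjusted p = 0.00212), 1.45 in AhR-/- (adjusted p = 0.0932) and 1.02 in CYP1B1-/- ECs (adjusted p = 0.193). With the hematopoietic score it was 2.93, 4.01 and 3.75, but the adjusted p were 0.51, 0.0504 and 0.121. The sums of hematopoietic markers were 27.3 to 250 CPM at steady state and 153 to 5406 CPM in HDM, and all 10 such markers were higher in HDM in each genotype.

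Gclm, the partner subunit of GCLC, did not follow it. It was at 9.55, 15.1, 14.8 and 26.6 CPM in WT steady-state replicates 1 to 4 and lower in every WT HDM library (-1.39 ± 0.41, adjusted p = 0.00969, and -1.06 with an adjusted p of 0.0544 without WT steady-state replicate 4). In CYP1B1-/- ECs it was lower by the fitted value (-1.69 ± 0.44, adjusted p = 0.00391), but this rested on CYP1B1-/- steady-state replicate 2, without which the change was -0.50 (adjusted p = 0.332). With the hematopoietic score as a covariate neither call held (-0.95 in WT and -1.32 in CYP1B1-/- ECs, adjusted p = 0.746 and 0.453), nor with the alveolar type 1 score (-0.87 and -1.05, adjusted p = 0.432 and 0.503). In AhR-/- ECs the levels in HDM lay within those at steady state (-0.11 ± 0.43, adjusted p = 0.891, with the sign turning under several alternatives).

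As a ratio within each library, Gclc counts per kb were 0.376 to 1.81 times those of Gclm at steady state in all genotypes. In HDM the ratio was 13.2 to 34 in WT and 13.8 to 45.7 in CYP1B1-/- ECs. In AhR-/- HDM replicates 1 to 4 it was 25.9, 26.7, 1.55 and 5.03. Of the 2 AhR-/- HDM libraries with Y-linked reads, replicate 3 thus lay inside the steady-state range and replicate 4 between that range and the other HDM libraries.

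**Figure D3:**
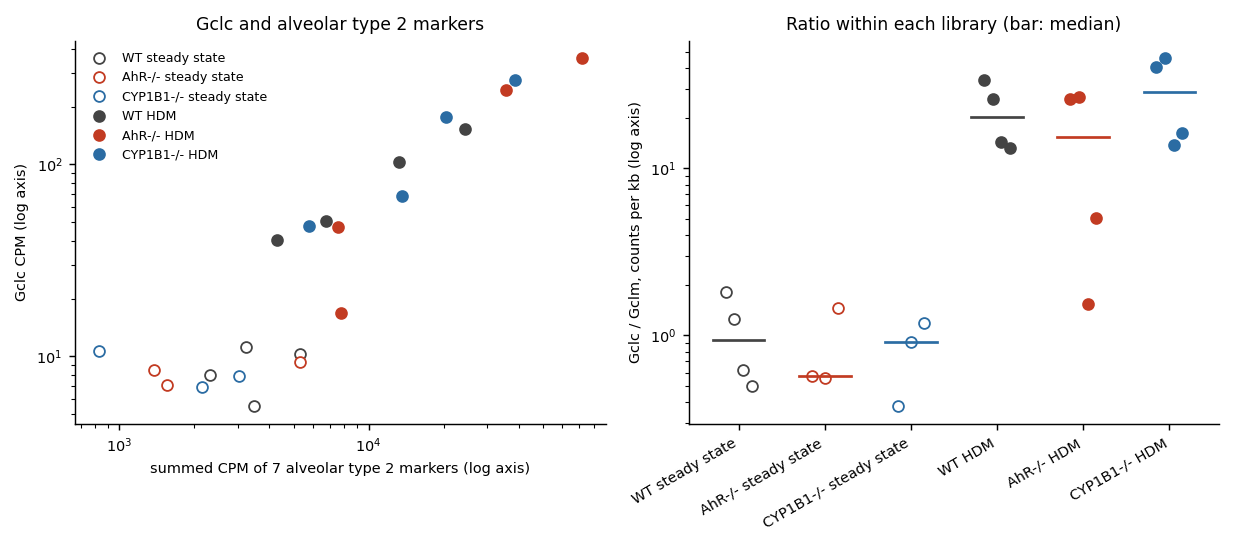
Left, Gclc CPM against the summed CPM of 7 alveolar type 2 markers in the 22 libraries (both axes logarithmic), and right, the ratio of Gclc to Gclm counts per kb within each library (logarithmic axis, bars at medians). Among HDM libraries Gclc was highest (358 CPM) where the marker sum was highest (71719 CPM), and the ratio was 1.55 and 5.03 in AhR-/- HDM replicates 3 and 4.

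Slc7a11 was higher in HDM in WT ECs (3.22, 4.69, 5.08 and 1.79 CPM at steady state, 1.60 ± 0.43, adjusted p = 0.00452), where no HDM library fell below 6.41 CPM. It was also higher in CYP1B1-/- ECs (2.13, 2.08 and 3.30 CPM at steady state, 1.55 ± 0.47, adjusted p = 0.0135), where all 4 HDM libraries exceeded the 3 at steady state. That call was lost without CYP1B1-/- steady-state replicate 3 (adjusted p = 0.0654) or HDM replicate 3 (adjusted p = 0.0781). In AhR-/- ECs it was at 3.47, 4.65 and 2.77 CPM at steady state and did not differ by more than its error (0.06 ± 0.47, adjusted p = 0.944). With the alveolar type 1 score as a covariate the change was 0.42 in WT (adjusted p = 0.697) and -0.08 in CYP1B1-/- ECs (adjusted p = 0.974). The sums of the 6 alveolar type 1 markers were 14060 to 25553 CPM over the steady-state libraries, above every WT (599 to 4369 CPM) and CYP1B1-/- (418 to 3958 CPM) HDM library.

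Srxn1 fell in WT (7.46, 9.20, 7.65 and 11.4 CPM at steady state, -1.19 ± 0.26, adjusted p = 0.000944) and CYP1B1-/- ECs (7.30, 9.94 and 8.25 CPM at steady state, -1.23 ± 0.28, adjusted p = 0.00136). In both, every HDM library was below every steady-state library. In AhR-/- ECs it was at 7.49, 8.56 and 9.41 CPM at steady state, the groups overlapped, and the change was -0.37 ± 0.28 (adjusted p = 0.374). The calls of Srxn1 held without any 1 library but were lost with marker scores as covariates. With the hematopoietic score the change was -0.92 in WT (adjusted p = 0.606) and -0.95 in CYP1B1-/- ECs (adjusted p = 0.46), and with the alveolar type 1 score -0.89 (adjusted p = 0.172) and -0.85 (adjusted p = 0.354).

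Gpx2 was at 0.993 to 2.93 CPM over the 10 steady-state libraries and at 2.05 to 18.6 CPM in HDM. The rise passed the test in AhR-/- (2.47 ± 0.64, adjusted p = 0.00981, 0.0605 without steady-state replicate 4) and CYP1B1-/- ECs (1.95 ± 0.64, adjusted p = 0.0216, 0.0602 to 0.0648 without steady-state replicate 2 or 4 or HDM replicate 2). It missed in WT ECs (1.34 ± 0.58, adjusted p = 0.0728), although all 4 HDM libraries were above the 4 at steady state. With the alveolar type 2 score the values in AhR-/- and CYP1B1-/- ECs were 0.32 and -0.25 (adjusted p = 0.80 and 0.835).

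Hmox1 was at 3.86 to 4.88 CPM in WT steady-state and at 15.3, 9.39, 8.83 and 5.26 CPM in WT HDM replicates 1 to 4, without overlap (1.16 ± 0.45, adjusted p = 0.0457). The call was lost without any 1 steady-state library or without HDM replicate 1 or 3 (log2 fold change 0.83 to 1.38, adjusted p up to 0.195), and with the alveolar type 2 score the value was 0.20 (adjusted p = 0.712). In CYP1B1-/- ECs the rise of 1.09 ± 0.50 missed the threshold (adjusted p = 0.101), with all HDM libraries (6.79 to 13.3 CPM) above all steady-state libraries (3.71 to 4.97 CPM). In AhR-/- ECs it was 0.74 ± 0.49 (adjusted p = 0.293), and 1.49 (adjusted p = 0.00944) without AhR-/- HDM replicates 3 and 4.

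Keap1 (chr9:21229730-21239361, minus strand) fell in AhR-/- ECs from 23.3, 26.1 and 24.6 CPM at steady state (-1.38 ± 0.36, adjusted p = 0.0104), without overlap between the states. It fell in CYP1B1-/- ECs from 51.5, 28.8 and 30.4 CPM to 13.5, 11.5, 20.6 and 13.6 CPM (-1.30 ± 0.36, adjusted p = 0.00663), and by 0.79 with an adjusted p of 0.0986 without CYP1B1-/- steady-state replicate 2. Both calls were lost with the hematopoietic score (-1.77 in AhR-/- and -1.87 in CYP1B1-/- ECs, adjusted p = 0.0548 and 0.186), that of AhR-/- also with the alveolar type 2 score (-1.67, adjusted p = 0.0516) and that of CYP1B1-/- also with the type 1 score (-1.98, adjusted p = 0.0863). In WT ECs the states overlapped (21.1, 23, 25.1 and 32.2 CPM at steady state, -0.49, adjusted p = 0.267). Nfe2l2 (-0.45, adjusted p = 0.258) and Txnrd1 (-0.58, adjusted p = 0.115) did not pass in WT ECs, and Nfe2l2, Txnrd1 and Prdx1 were called in none of the 3 genotypes, although the AhR-/- HDM libraries of Nfe2l2 (87.1 to 141 CPM) lay below those at steady state. Prdx1 was at 114 to 307 CPM in HDM and, apart from CYP1B1-/- replicate 2, at 176 to 242 CPM at steady state.

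**Figure D4:**
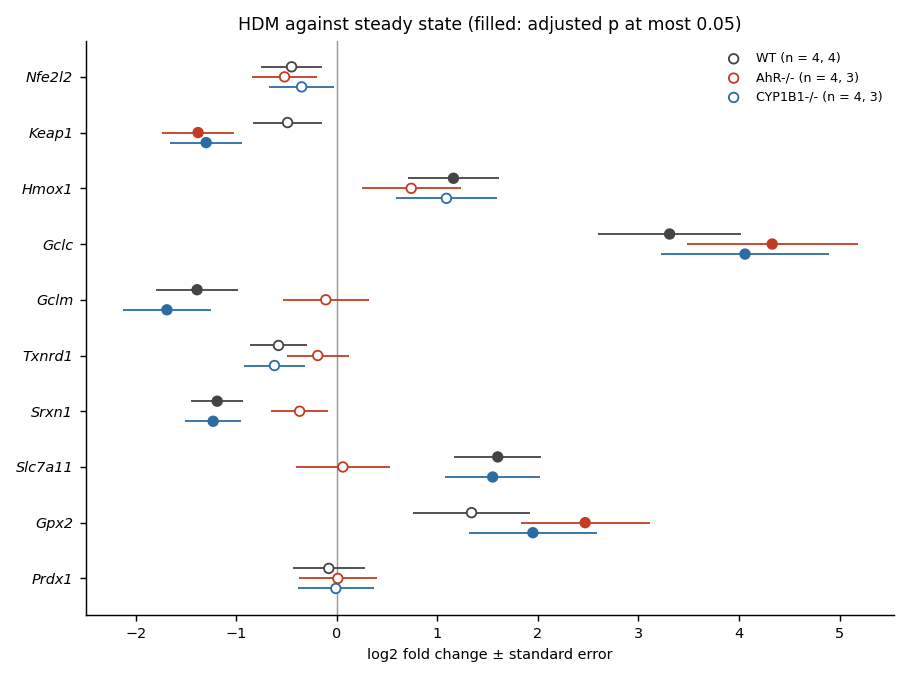
Log2 fold change with its standard error of each member in HDM against steady-state ECs of WT (grey, n = 4 and 4), AhR-/- (red, n = 4 and 3) and CYP1B1-/- mice (blue, n = 4 and 3), filled where the adjusted p was at most 0.05. Gclc is filled in all 3 genotypes (3.31, 4.33 and 4.06), and the AhR-/- points of Gclm (-0.11), Srxn1 (-0.37) and Slc7a11 (0.06) lie near 0 where the points of the other genotypes are filled.

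Whether HDM acted differently in the knockouts was tested as the interaction of genotype and state. No gene of 16639 passed for AhR-/- (0%, 3050 at an unadjusted p under 0.05, 1236 called by DESeq2 and 221 by the likelihood ratio test) or for CYP1B1-/- (0%, 382 at an unadjusted p under 0.05). For AhR-/- the terms were 1.29 ± 0.60 for Gclm (adjusted p = 0.255), -1.54 ± 0.63 for Slc7a11 (adjusted p = 0.202) and 0.82 ± 0.38 for Srxn1 (adjusted p = 0.257). Their unadjusted p were 0.0417, 0.022 and 0.0423. The smaller changes of these 3 genes with HDM in AhR-/- ECs are therefore not shown to differ from those in WT ECs. Gclc (1.02 ± 0.97, adjusted p = 0.638) and Keap1 (-0.90 ± 0.50, adjusted p = 0.337) did not pass either.

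A wider list of 50 genes of the pathway was described in the same way, of which 49 were tested between genotypes. Between AhR-/- and WT ECs after HDM 7 rose and 5 fell (median log2 fold change 0.24, against 0.00 over all genes), beside the 9.22% and 12.9% of all genes. Depending on the 1 library left out, 0 to 16 of the list and 0 to 4137 of all genes were called. None of the list was called with replicate number as a block. The conjugation and quinone enzymes held 4 of the 7 that rose. Gsta3, a glutathione S-transferase, was at 1.60 to 8.88 CPM in WT and 23.3 to 93.3 CPM in AhR-/- HDM libraries (3.65 ± 0.69, adjusted p = 0.0261). Ephx1, microsomal epoxide hydrolase (2.16 ± 0.52, adjusted p = 0.0261), Gstm1 (2.10 ± 0.47, adjusted p = 0.0261) and Nqo1, a quinone reductase (2.00 ± 0.51, adjusted p = 0.0272), rose too. For all 4, every AhR-/- library was above every WT library, as for 7 of the 49, with 2 more wholly below, beside 19.5% of all genes without overlap. With the alveolar type 1 score as a covariate 0 of the list were called (2.12 for Gsta3 with an adjusted p of 0.109, 0.97 for Ephx1 with 0.171). Nqo1 stood at 1.59 to 4.55 CPM in AhR-/- against 0.507 to 1.07 CPM in WT, from 9 to 101 and from 2 to 20 counts. The club and ciliated marker sums given above moved in the same direction as these 4 genes, and their part was not tested. In the same group Cbr3, a carbonyl reductase, fell (-1.45 ± 0.40, adjusted p = 0.0298), as did the exporter Abcc1.

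Among the regulators, Cul3, the scaffold of the ligase that degrades NRF2, was at 17.4 to 30.1 CPM in WT and at 40.4 to 59.8 CPM in AhR-/- HDM libraries (1.01 ± 0.19, adjusted p = 0.0261), and 0 of the other 7 tested were called. Gss, glutathione synthetase, rose by 1.18 ± 0.34 (adjusted p = 0.0339), and the peroxiredoxin Prdx6 rose too. Of the 6 genes that supply NADPH, 3 enzymes of the pentose phosphate pathway fell, namely Taldo1 (-1.73 ± 0.50, adjusted p = 0.0343), Tkt (-1.58 ± 0.44, adjusted p = 0.0308) and G6pdx (-1.47 ± 0.41, adjusted p = 0.0315), and 0 rose, beside 12.9% and 9.22% of all genes. Taldo1 was at 89.6 to 253 CPM in WT and at 24.1 to 84.5 CPM in AhR-/- libraries, without overlap, while the groups overlapped for Tkt and G6pdx. None of the 6 heme and iron genes or the 5 other antioxidant genes was called. With the hematopoietic score as a covariate the values were -0.18 for Taldo1, -0.36 for Tkt and -0.45 for G6pdx, and 2.64 for Gsta3 and 0.94 for Cul3, and 0 of the list were called.

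**Figure D5:**
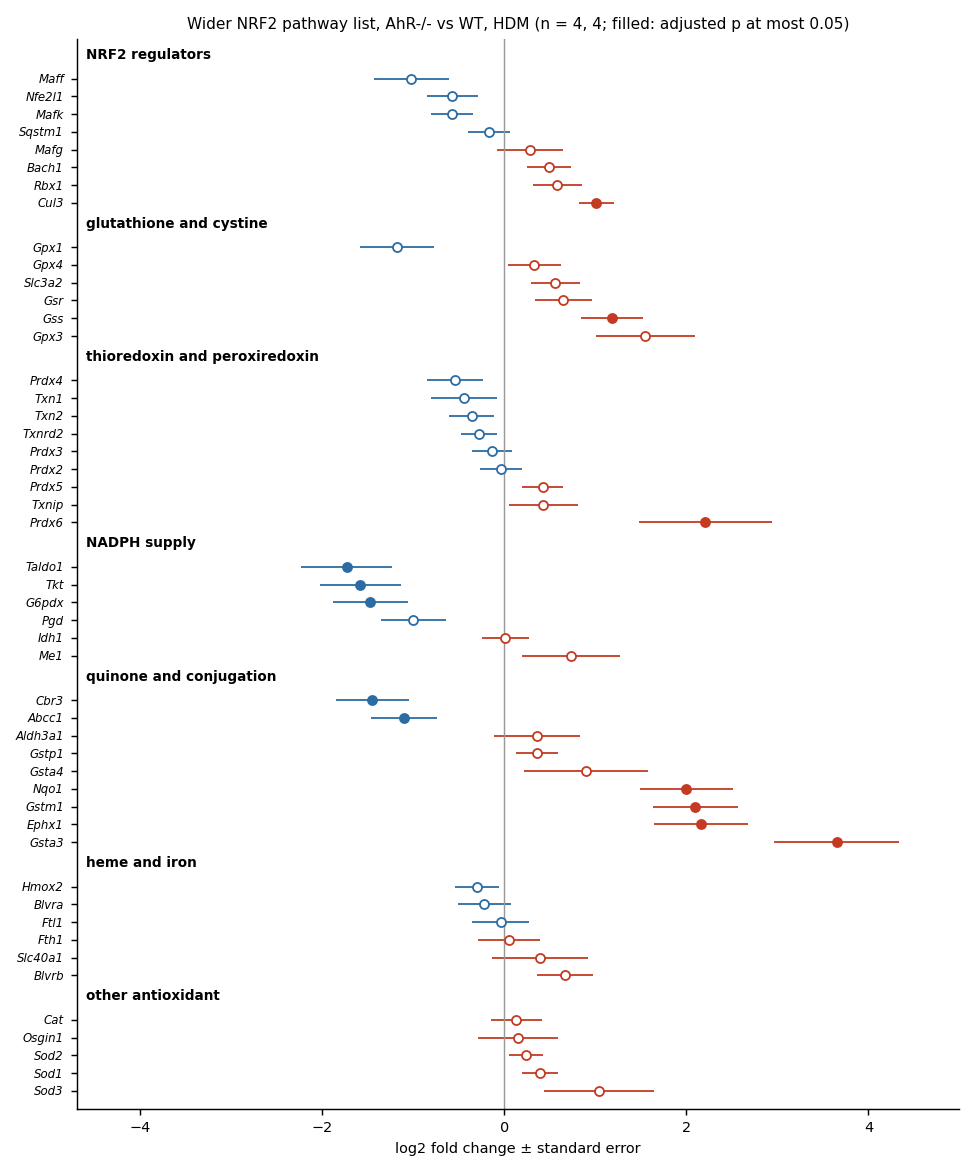
Log2 fold change with its standard error of the 49 tested genes of the wider pathway list in AhR-/- against WT ECs after HDM (n = 4 and 4), grouped by role and filled where the adjusted p was at most 0.05. The 4 filled conjugation and quinone genes to the right are Gsta3, Ephx1, Gstm1 and Nqo1 (3.65 to 2.00), and the 3 filled NADPH genes to the left are Taldo1, Tkt and G6pdx (-1.73 to -1.47).

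In the other comparisons between genotypes 0 of the 49 were called. For CYP1B1-/- against WT after HDM the lowest p belonged to Sod3 (1.53), Gstm1 (1.20) and Gpx3 (1.37), each with an adjusted p of 0.999. For AhR-/- against CYP1B1-/- after HDM they were Gsta3 (3.10), Cul3 (0.79) and Ephx1 (2.08), each with an adjusted p of 0.0638. DESeq2 called all 3 (adjusted p = 0.000647, 0.000951 and 0.00334), and with the alveolar type 1 score the values of Gsta3 and Ephx1 were 1.14 and 0.565 (adjusted p = 1 for both). At steady state they were Slc3a2 (0.37), Bach1 (0.56) and Txnip (0.76) for AhR-/- against WT, Pgd (-0.26), Bach1 (0.54) and Idh1 (-0.43) for CYP1B1-/- against WT, and Osgin1 (0.45), Nqo1 (0.63) and G6pdx (0.49) between the knockouts. None of these steady-state values passed the test.

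With HDM the wider list moved in both directions. In WT ECs 13 of 50 rose and 13 fell, beside 19.0% and 19.4% of all genes. The counts in AhR-/- ECs were 8 that rose and 5 that fell, beside 10.6% and 10.1%, and in CYP1B1-/- ECs 10 rose and 13 fell, beside 15.5% and 17.9%. Bach1, the repressor that competes with NRF2, rose in all 3 genotypes (2.01 in WT, 1.90 in AhR-/- and 1.33 in CYP1B1-/- ECs). All 10 hematopoietic markers rose with HDM in each genotype (median log2 fold changes 5.10, 4.81 and 6.73). With the hematopoietic score as a covariate 0 genes of the list were called in WT and CYP1B1-/- ECs and 3 in AhR-/- ECs, and Bach1 was at 1.56 (adjusted p = 0.40), 0.88 (adjusted p = 0.502) and 1.60 (adjusted p = 0.0441) in WT, CYP1B1-/- and AhR-/- ECs. The genes higher in AhR-/- than WT ECs after HDM included several that fell with HDM in WT ECs, namely Gsta3 (-3.50), Prdx6 (-2.94), Ephx1 (-2.35), Nqo1 (-2.03) and Gss (-1.81). In CYP1B1-/- ECs Prdx6 (-3.37), Gsta3 (-3.02), Ephx1 (-2.12) and Gss (-1.84) fell as well. In AhR-/- ECs none of these 5 was called. The WT HDM libraries enter both the comparison between genotypes and the comparison between states, so these values are not independent, and the interaction was not called for Gsta3 (3.12, adjusted p = 0.149), Nqo1 (1.71, adjusted p = 0.149) or Ephx1 (1.98, adjusted p = 0.152). With the alveolar type 1 score as a covariate the falls in WT ECs were -1.09 for Gsta3 (adjusted p = 0.211) and -0.51 for Ephx1 (adjusted p = 0.538).

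Of the NADPH genes 4 of 6 rose and 0 fell in WT ECs (median 1.27), beside 19.0% and 19.4% of all genes, among them G6pdx (1.84), and G6pdx (2.05) and Idh1 (1.44) rose in CYP1B1-/- ECs. None of these calls held with the hematopoietic score, under which G6pdx was at 0.42 in WT (adjusted p = 0.906) and 0.61 in CYP1B1-/- ECs (adjusted p = 0.764). Cbr3 rose in WT (2.98) and AhR-/- ECs (1.69), and Prdx4 (1.45) and the small MAF gene Maff (1.96) rose in WT ECs. Calls in AhR-/- ECs also held Cul3 (0.97), Aldh3a1 (1.71), the ferritin light chain Ftl1 (1.21) and Idh1 (1.07) among those that rose. The small MAF gene Mafk (-1.56), Nfe2l1 (-1.32), Abcc1 (-1.36) and the autophagy receptor Sqstm1 (-1.02) fell there. Mafk (-1.60), Sqstm1 (-1.40) and Gpx4 (-1.31) fell in CYP1B1-/- ECs. For CYP1B1-/- the interaction terms of lowest p were Sod3 (1.66), Gstm1 (1.45) and Mafk (-0.73), each with an adjusted p of 1.

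The members did not vary together as 1 set. After subtracting group means from log2 CPM, Pearson's r over the 22 libraries was at least 0.7 in 6 of the 45 pairs of members and negative in 12, with a median of 0.17. Over the 21 libraries without CYP1B1-/- steady-state replicate 2 the median was 0.26, with 13 pairs negative, and r moved from -0.43 to 0.24 for Nfe2l2 with Gclm and from 0.10 to 0.65 for Nfe2l2 with Txnrd1. The libraries share the depth and cell content of each sample between genes, so r is a description. The share over all pairs of genes was not computed, so these values are not shown to be particular to the members. Nfe2l2 and Prdx1 had the highest r over the 22 libraries (0.93). Their r over the 21 libraries was 0.82, below that of Gclc with Gpx2 (0.92), Hmox1 with Gclc (0.87) and Hmox1 with Gpx2 (0.86). Among the 22 libraries, Hmox1, Gclc and Gpx2 had high r with each other (Hmox1 and Gclc 0.87, Gclc and Gpx2 0.87, Hmox1 and Gpx2 0.82). Each of these 3 had an r of 0.83 to 0.89 with the alveolar type 2 score, and Keap1 and Hmox1 had an r of 0.75. Gclm went with Txnrd1 (0.71) and hardly with Gclc (0.25), and Slc7a11 had an r of -0.36 with Gclm and of -0.57 with the alveolar type 1 score.

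The tested gene most like each member by the same measure was Fundc2 for Nfe2l2 (r = 0.94), Ercc2 for Keap1 (0.95), Tgfb3 for Hmox1 (0.96), Muc4 for Gclc (0.97) and Lonp1 for Gclm (0.95). For the others it was Ptms for Txnrd1 (0.91), Zfp658 for Srxn1 (0.87), P2ry1 for Slc7a11 (0.84), Ccdc120 for Gpx2 (0.92) and Chmp5 for Prdx1 (0.97). Over the 21 libraries Muc4, Lonp1, Ptms, Zfp658 and P2ry1 stayed first, and Rabggta, Slc25a22, Lbp, Mylk and Tspo took the place of the others for Nfe2l2, Keap1, Hmox1, Gpx2 and Prdx1.

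Some members share sequence or exons with other annotated genes. Of the 50-base words of Prdx1 transcripts, 8.81% also occurred in another gene, and the processed pseudogenes Gm21399 and Gm7204 had counts equal to 53.0% to 69.7% of those of Prdx1 (median 56.8%), so the level of Prdx1 is uncertain. Exons of Keap1 overlapped the antisense gene Gm16754 over 10.87% of their length and those of Gclm overlapped Gm17494 and Gm6061 over 8.58%. Strand use in the counting was not given in the sources used here, and Gm17494 had at most 8.70% of the counts of Gclm. Counts of Gm6061, a pseudogene on the strand of Gclm, were not compared. Other genes, Ppia among them, held 4.58% of the 50-base words of Gclm, and 1.47% of those of Slc7a11 were shared. The level of Gclm is thus uncertain too. Gm16754 had 5.4% to 25% of the counts of Keap1, and the pseudogene Gpx2-ps1 up to 18.5% of those of Gpx2, so these levels are uncertain as well.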

How the data were processed

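The deposited tables, 1 per state, held raw read counts per Ensembl gene. Per the labels and the study's methods, cDNA was primed with poly-T, extended by template switching and amplified, and the authors trimmed reads with bbduk, aligned them with GSNAP to GRCm38 (mm10) and counted them with featureCounts (2.0.0) on Ensembl 99. How strand and multi-mapped reads were counted is not given in the sources used here. Of 54373 listed genes, 54147 matched GENCODE M21 (GRCm38), which gave symbols, exon lengths and coordinates, and the 21793 protein-coding genes were analysed. Promoters came from RefSeq (GRCm38.p6).

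Counts were analysed in R 4.3.3 with edgeR 4.0.16 (filterByExpr with a minimum count of 10, TMM, robust quasi-likelihood fit, Benjamini-Hochberg adjustment over all genes tested, threshold 0.05). Genotypes were compared within the table of 1 state (12 HDM or 10 steady-state libraries), and states and interactions over all 22 libraries in 6 groups. CPM used TMM library sizes of the 22-library fit, and log2 CPM a prior count of 1. Standard errors were derived from the quasi-likelihood F statistic. The procedure was run on simulated counts with 200 genes changed and otherwise the same mean of a gene in every group. The simulation held no shifts of cell content between libraries, so it does not bear on them. Alternatives used RLE scaling, other filters, the likelihood ratio test, DESeq2 1.42.0, all listed genes, a replicate block, a hematopoietic score as covariate, removal of dominant predicted genes and removal of libraries. Covariates from alveolar type 1 and type 2 markers were added after seeing the data. No libraries of a group were duplicates (30 pairs, lowest chi-square per gene 7.58). Members and lists were chosen with earlier results of these data known. Text names all 10 members and, of the wider list of 50 genes in 7 roles, up to 10 of lowest p among those called in a comparison, or 3 where none was called. Genes named in passing outside that rule (Abcc1 and Prdx6 after HDM, Gm10800) were chosen after their values were seen. Depth limits precision: 3 counts were worth 0.107 to 1.36 CPM, which covers counting error only.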

Additional observations from a re-analysis of the deposited data

Results flagged for a closer look

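Among the 40 groups of 4 libraries examined for a library far from the others, of which chance alone gives about 1 in 20, Prdx1 stood out in WT steady-state replicate 4, at 228 CPM where the other 3 libraries lay between 176 and 184 CPM. Counts outside the members were also present in 2 processed pseudogenes of Prdx1, Gm21399 and Gm7204, which entered no comparison and whose counts came to a median of 56.8% of those of Prdx1.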

How the results depend on the processing

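Depth outside the dominant predicted genes, down to 1180756 counts in AhR-/- HDM replicate 3, limits Hmox1, Keap1, Slc7a11 and Gpx2 most. RLE scaling and removal of the dominant predicted genes kept the direction and the side of the threshold of each value recomputed under them, and the counts of calls within 1.5 times. Same-numbered libraries were not alike on average (mean r -0.04 in HDM, from -0.56 to 0.75, and 0.08 at steady state, from -0.03 to 0.23). Some values in HDM nevertheless split by replicate number. In each genotype replicates 1 and 2 lay above replicates 3 and 4 for Gclc, Hmox1, Gpx2 and the alveolar type 2 marker sum. For Gclc these were 103 to 358 CPM against 16.8 to 68.6 CPM. The other members did not split this way in every genotype. Why these values split was not tested. Of single genes' values, 1073 of those under other settings and 819 of those without 1 library kept direction and side of the threshold, 167 and 104 lost the threshold, 22 and 11 gained it and 18 and 10 turned sign. The cause was not tested, except that the filter on 10 counts in every library leaves fewer genes to test.

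Counts of all genes called moved as follows. For AhR-/- against WT after HDM they were 1802 with no low-count filter, 1 with the replicate block and 0 with the hematopoietic or alveolar type 1 score or without AhR-/- replicates 3 and 4 (0 to 4137 without 1 library). For AhR-/- against CYP1B1-/- after HDM they were 2906 by DESeq2, 2458 by the likelihood ratio test, 2 with the alveolar type 2 score and 0 with the other scores, no filter, the stricter filter or without AhR-/- replicates 3 and 4 (0 to 3098). At steady state they were 13 by DESeq2 and 11 by the likelihood ratio test for AhR-/- against WT (0 to 1), 5 by DESeq2, 1 with the alveolar type 1 score and 0 with the type 2 score or the block for CYP1B1-/- against WT (0 to 4), and 14 by DESeq2, 9 by the likelihood ratio test, 3 over all listed genes and 0 with the type 2 score or the block between the knockouts (0 to 7). CYP1B1-/- against WT after HDM gave 1 by DESeq2 and 1 by the likelihood ratio test (0 without any 1 library). For HDM against steady state they were 1303 (alveolar type 1), 5 (hematopoietic) and 2785 (block) in WT (5408 to 6767), 748 (type 2), 408 (hematopoietic) and 382 (block) in AhR-/- (1532 to 3935), and 157 (type 1), 3663 (type 2), 28 (hematopoietic) and 606 (block) in CYP1B1-/- ECs (4410 to 5956). The AhR-/- interaction gave 1236 by DESeq2, 221 by the likelihood ratio test and 3 with the block (0 to 1017), and that of CYP1B1-/- 0 to 1 without 1 library.

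Members called after HDM were, for AhR-/- against WT, 4 by DESeq2, 1 with the stricter filter and 0 with the block, the hematopoietic or alveolar type 1 score or without AhR-/- replicates 3 and 4 (0 to 3 without 1 library), and for AhR-/- against CYP1B1-/- 2 by DESeq2 and 1 by the likelihood ratio test (0 to 1). For HDM against steady state they were 2 with the block or the stricter filter, 1 with the type 1 and 0 with the hematopoietic score in WT (3 to 5), 1 with the stricter filter and 0 with the type 2 or hematopoietic score in AhR-/- (2 to 3), and 2 with the block or stricter filter, 3 with the type 2 and 0 with the type 1 or hematopoietic score in CYP1B1-/- ECs (3 to 6).

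Genes of the wider list called were, for AhR-/- against WT after HDM, 5 with no filter and 0 with the block, the hematopoietic or type 1 score or without AhR-/- replicates 3 and 4 (0 to 16), and for AhR-/- against CYP1B1-/- 11 by DESeq2 and 8 by the likelihood ratio test (0 to 11). For HDM against steady state they were 10 (block), 3 (type 1) and 0 (hematopoietic) in WT (21 to 26), 8 (type 1), 4 (type 2), 3 (hematopoietic) and 3 (block) in AhR-/- (4 to 16), and 14 (type 2), 1 (block) and 0 (type 1 or hematopoietic) in CYP1B1-/- ECs (18 to 27). The AhR-/- interaction gave 7 by DESeq2 and 1 by the likelihood ratio test (0 to 5).

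Log2 fold changes turned sign in these cases. Hmox1, AhR-/- against WT after HDM, was -0.22 with the block and -0.27 with the type 2 score (-0.612 to 0.394 without 1 library). CYP1B1-/- against WT at steady state ran, without 1 library, from -0.401 to 0.210 for Nfe2l2, from -0.524 to 0.953 for Gclm and from -0.483 to 0.201 for Prdx1. Gclc, CYP1B1-/- against WT after HDM, was -0.14 with the type 2 score. Between states in AhR-/- ECs, Hmox1 was -0.97 with the type 2 score, Gclm was 0.008 with the stricter filter and 0.006 over all listed genes, 0.059 with the block, 0.16 with the hematopoietic and 0.11 with the type 1 score, 0.037 without AhR-/- HDM replicates 3 and 4 and -0.433 to 0.222 without 1 library, and Slc7a11 was -0.44 with the block, -0.64 with the hematopoietic and -0.53 with the type 1 score and -0.373 to 0.326 without 1 library. Between states in CYP1B1-/- ECs, Hmox1 was -0.56 and Gpx2 -0.25 with the type 2 score, and Slc7a11 was -0.083 and Ephx1 0.21 with the type 1 score. The AhR-/- interaction of Gclc was -0.26 with the type 2 score.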
